A study of Mus musculus with 12 samples.

Results

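The genes described here are 39 macrophage and myeloid inflammation genes, taken by their symbols from a written list. All 39 were found among the 53700 Ensembl genes of the count table, Adgre1 under an older symbol, and all 39 passed the filter on low counts that left 17847 genes for testing. The list covers pan-leukocyte and pan-macrophage genes, Fc receptors and their adaptors, the C1q chains, markers of resident macrophages, the monocyte receptor Ccr2, class II antigen presentation, the neutrophil pair S100a8 and S100a9, chemokines and cytokines.

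RNA of whole hearts was sequenced in a group of 6 ac-WT mice and a group of 6 ac-CYB5R3–KO mice. CYB5R3 is a flavoenzyme that passes electrons from NADH to cytochrome b5, coenzyme Q and other acceptors. Mice of both groups carried Myh6-CreERT2, a tamoxifen-activated Cre driven by a promoter of cardiomyocytes, and both received tamoxifen at 33 mg/kg/d for 5 days, beginning between 10 and 13 weeks of age. Cyb5r3 alleles were CYB5R3 wt/wt in ac-WT and floxed on both chromosomes in ac-CYB5R3–KO mice, and hearts were taken 5 days after the last dose. The line was of mixed FVB and B6 origin, crossed back 3 times to C57BL/6J, and the study's text places its later mouse experiments, this one among them, in males, while the labels give no sex. Because Cre acts in cardiomyocytes, the myeloid cells of the ac-CYB5R3–KO hearts were not targeted by design.

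The adult heart holds resident macrophages that arose before birth and renew in place, and these carry Lyve1, Timd4, Folr2, Mrc1 and Cd163. A separate class of Ccr2+ macrophages is replaced from blood monocytes, which follow the chemokines Ccl2 and Ccl7 into tissue. Macrophages clear dying cells and debris through scavenger and Fc receptors and C1q, present peptides on class II molecules, and release cytokines such as Il1b, Tnf and Il6.

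Total counts lay between 43393183 and 53754284 reads per heart, and levels are given as CPM, the reads of a gene as a rate of all reads of its heart, scaled by TMM. TMM is a factor that corrects each library for a few genes taking a large share of its reads. The factors of ac-WT mice 2 and 3 were 0.570 and 0.723, and those of the other 10 hearts lay between 0.988 and 1.22. The counts of lower genes and the 5 lower genes are therefore also given without them. Cyb5r3 itself averaged 126 ± 38.4 CPM in ac-WT and 53.7 ± 9.07 CPM in ac-CYB5R3–KO hearts (SD, n = 6 each). No ac-CYB5R3–KO heart reached the lowest ac-WT heart, and the log2 fold change was −1.22 (SE 0.19, adjusted p = 0.0450 by edgeR), a call at the adjusted threshold that was lost in some alternatives, though the direction was kept in all of them.

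Levels of 5 of the 39 genes were lower in ac-CYB5R3–KO hearts at an unadjusted p under 0.05, and none was higher. They were Cxcl1, Timd4, Cd163, Lyve1 and Ccl6. This is 12.8% of the list, against 9.73% of all genes tested that were lower and 4.91% that were higher at the same threshold. At an unadjusted p under 0.01, 4 genes (10.3%) were lower, against 3.27% of all genes tested. The list was chosen with earlier results of these data known, so these shares describe it and are no independent test. After Benjamini-Hochberg adjustment over all 17847 genes in edgeR, 0 of the 39 passed 0.05, where 0.101% of all genes did, and the lowest adjusted p of the list was 0.173. By DESeq2, 3 of the 39 passed the adjusted threshold, Cxcl1, Cd163 and Timd4, where 2.45% of all genes did. The groups overlapped for every one of the 39 genes, and 1.55% of all genes tested had groups that did not overlap.

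The counts by role come from all 12 hearts, and no difference between roles was tested. Among resident macrophage genes 3 of 6 were lower, with a median log2 fold change of −0.50 over the 6. Among chemokines 2 of 4 were lower, with a median of −0.58. No gene passed the unadjusted threshold among the 12 pan-leukocyte and pan-macrophage genes (median −0.087), the 4 Fc receptor and adaptor genes (−0.089), the 3 C1q chains (0.003), Ccr2 (−0.16), the 4 class II genes (0.25), the 2 neutrophil genes (0.12) or the 3 cytokines (0.25). The median over all 39 genes was −0.074, beside −0.0074 for all genes tested, and 25 of the 39 (64.1%) had a negative log2 fold change, as did 51.2% of all genes. Without ac-WT mice 2 and 3, where 4.54% of all genes tested were lower, 6 of the 12 pan-leukocyte and pan-macrophage genes were also lower. So was 1 of the 4 Fc receptor and adaptor genes, and the split by role therefore depends on those libraries. With 1 surrogate variable, a covariate estimated from the counts themselves, 5.19% of all genes tested were lower. In that fit 10 of the 12 pan-leukocyte and pan-macrophage genes and all 4 Fc receptor and adaptor genes were lower. So were all 3 C1q chains, 5 of 6 resident macrophage genes and Ccr2. Of the 39 genes, 0 passed the adjusted threshold in either fit. The class II, neutrophil and cytokine genes had 0 lower and 0 higher in both of these fits. Because whole hearts were measured, fewer cells of a type and less RNA per cell cannot be told apart in any of these values.

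**Figure D1:**
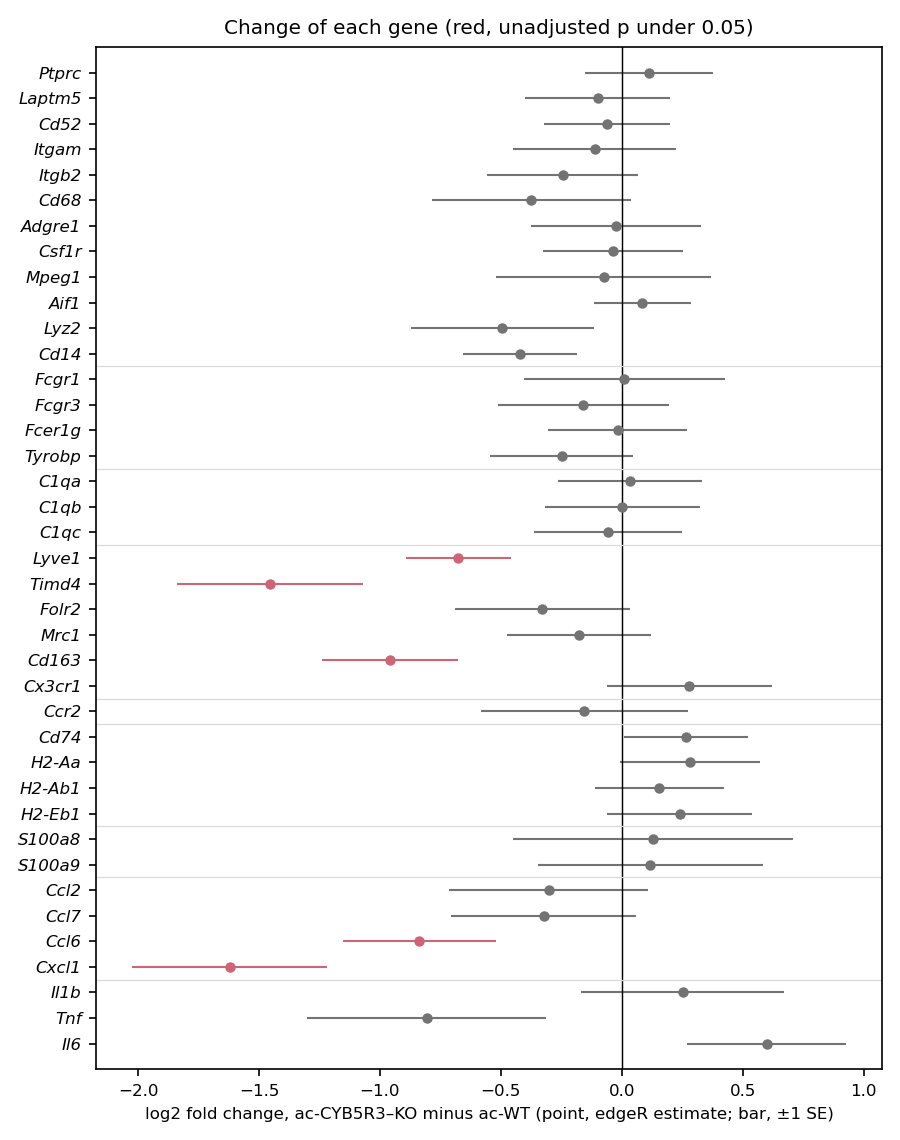
The horizontal axis is the log2 fold change of each gene, ac-CYB5R3–KO minus ac-WT, with the edgeR estimate as a point and 1 SE to each side as a bar. The 39 genes are listed by role, and the 5 in red, all left of 0, had an unadjusted p under 0.05.

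Cd163 is the scavenger receptor that takes up haemoglobin bound to haptoglobin. Its level ran from 8.50 to 31.9 CPM in ac-WT hearts, with a median of 19.4, and from 5.33 to 14.4 CPM in the ac-CYB5R3–KO hearts, with a median of 10.4. Only ac-WT mouse 1 fell inside the ac-CYB5R3–KO range. The log2 fold change was −0.96 (SE 0.28, edgeR unadjusted p = 0.0044, adjusted p = 0.188), and the exact permutation test on CPM gave p = 0.0238. Without ac-WT mice 2 and 3 it was −1.08. Cd163 lies on chr6:124254669-124280545 of NCBIM37 (mm9), plus strand.

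Lyve1, a receptor for hyaluronan, marks a perivascular class of resident macrophages and also lymphatic endothelium. It ran from 6.14 to 12.6 CPM in ac-WT hearts (median 9.29) and from 3.10 to 8.14 CPM in the ac-CYB5R3–KO hearts (median 5.91). The lowest ac-WT heart, mouse 4, lay below ac-CYB5R3–KO mice 2 and 6. Its log2 fold change was −0.68 (SE 0.22, edgeR unadjusted p = 0.0077, adjusted p = 0.206), and the exact permutation p was 0.0152. Without ac-WT mice 2 and 3 it was again −0.68. With total counts in place of TMM the difference was −0.42 and did not pass the threshold (unadjusted p = 0.144). Of 5 other genes of lymphatic endothelium, a list added after values were seen, 0 passed the threshold in either direction. Prox1, the factor that specifies lymphatic identity, averaged 12.4 ± 4.79 CPM in ac-WT and 12.3 ± 2.87 CPM in ac-CYB5R3–KO hearts, and Mmrn1 had a log2 fold change of −0.42 that did not pass the threshold. Lyve1 lies on chr7:117994121-118006467 of NCBIM37, minus strand.

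Timd4 (TIM-4) binds phosphatidylserine on dying cells and marks resident macrophages that renew without monocytes. It was counted in 9 to 42 reads per heart. Its level ran from 0.284 to 1.47 CPM in ac-WT hearts (median 0.509) and from 0.152 to 0.305 CPM in the ac-CYB5R3–KO hearts (median 0.232). Mouse 2 held the highest ac-WT value, and ac-WT mice 4 and 6 lay close to the ac-CYB5R3–KO hearts. The log2 fold change was −1.45 (SE 0.38, edgeR unadjusted p = 0.0021, adjusted p = 0.173; exact permutation p = 0.00433). It was −1.01 without ac-WT mice 2 and 3 and −0.81 with 1 surrogate variable, both past the unadjusted threshold. Timd4 lies on chr11:46624302-46657834 of NCBIM37, plus strand.

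The other 3 resident macrophage genes did not pass the threshold. Folr2, a folate receptor counted in 13 to 89 reads per heart, averaged 0.750 ± 0.476 CPM in ac-WT and 0.606 ± 0.243 CPM in ac-CYB5R3–KO hearts. Mrc1, the mannose receptor CD206, averaged 55.7 ± 25.1 and 49.3 ± 19.4 CPM. Cx3cr1, the fractalkine receptor, averaged 16.5 ± 9.72 and 20.05 ± 2.91 CPM. Its ligand Cx3cl1, which is not of the 39, was higher in ac-CYB5R3–KO hearts, at 23.3 ± 3.75 CPM against 13.5 ± 5.98 CPM (log2 fold change 0.78, SE 0.27, edgeR unadjusted p = 0.0115, adjusted p = 0.224).

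Among the chemokines, Cxcl1 draws neutrophils through the receptor Cxcr2. It ran from 3.80 to 18.2 CPM in ac-WT hearts (median 6.02) and from 1.06 to 4.01 CPM in the ac-CYB5R3–KO hearts (median 2.86). Mice 1 and 2 held the highest ac-WT values, 12.2 and 18.2 CPM, and only ac-WT mouse 4 lay below the highest ac-CYB5R3–KO heart. Its log2 fold change was the largest of the list in size, −1.62 (SE 0.40, edgeR unadjusted p = 0.0013, adjusted p = 0.173), with an exact permutation p of 0.00433. It was −1.29 without ac-WT mice 2 and 3 and −1.06 with 1 surrogate variable. Cxcl1 lies on chr5:91320267-91322141 of NCBIM37, plus strand.

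The promoter of Cxcl1 is shown because the gene is a textbook target of NF-κB, the factor that turns on many inflammatory genes. In the RefSeq promoter table (GRCm38.p6, 250 bases before to 50 after the start), 27 of the 39 genes were matched. The stretch at chr5:90891135-90891223, plus strand, holds GGAATTTCC, the core letters of an NF-κB motif, in capitals, 70 bases before the start.
Cxcl1: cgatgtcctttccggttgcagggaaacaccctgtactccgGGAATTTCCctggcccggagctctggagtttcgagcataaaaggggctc
Read on both strands, these letters occur in 104 of 32851 promoters (0.317%), and in no other of the 27 matched. A match of letters is a description and no measure of binding.

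Ccl6, a chemokine made by macrophages and granulocytes, ran from 13.5 to 46.0 CPM in ac-WT hearts (median 22.7) and from 9.51 to 26.5 CPM in the ac-CYB5R3–KO hearts (median 11.96). Mouse 6 was the highest of each group, and the other 5 ac-CYB5R3–KO hearts lay at or below 14.97 CPM. The log2 fold change was −0.84 (SE 0.32, edgeR unadjusted p = 0.0191, adjusted p = 0.253), while the exact permutation test on CPM gave p = 0.0606. Without ac-WT mouse 6 it was −0.58 (unadjusted p = 0.061), with total counts −0.66 (unadjusted p = 0.107) and without ac-WT mice 2 and 3 −1.03. Ccl6 lies on chr11:83401384-83406589 of NCBIM37, minus strand.

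Ccl2 and Ccl7 recruit Ccr2+ monocytes. Ccl2 ran from 2.24 to 7.49 CPM in ac-WT and from 1.45 to 9.02 CPM in the ac-CYB5R3–KO hearts, where mouse 6 stood above the next highest at 3.57 CPM. Ccl7 ran from 1.13 to 4.82 and from 1.07 to 6.29 CPM, again with ac-CYB5R3–KO mouse 6 the highest. Both had a negative fold change (−0.30 and −0.32) that did not pass the threshold. Without ac-CYB5R3–KO mouse 6, 7 of the 39 genes were lower, with Ccl2 and Cd14 added to the 5, where 8.89% of all genes tested were. Their receptor Ccr2 ran from 5.87 to 48.5 CPM in ac-WT hearts (median 25.7) and from 14.6 to 36.2 CPM in the ac-CYB5R3–KO hearts (median 25.1), a log2 fold change of −0.16 (SE 0.43, edgeR unadjusted p = 0.723), with a sign that turned in some alternatives.

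**Figure D2:**
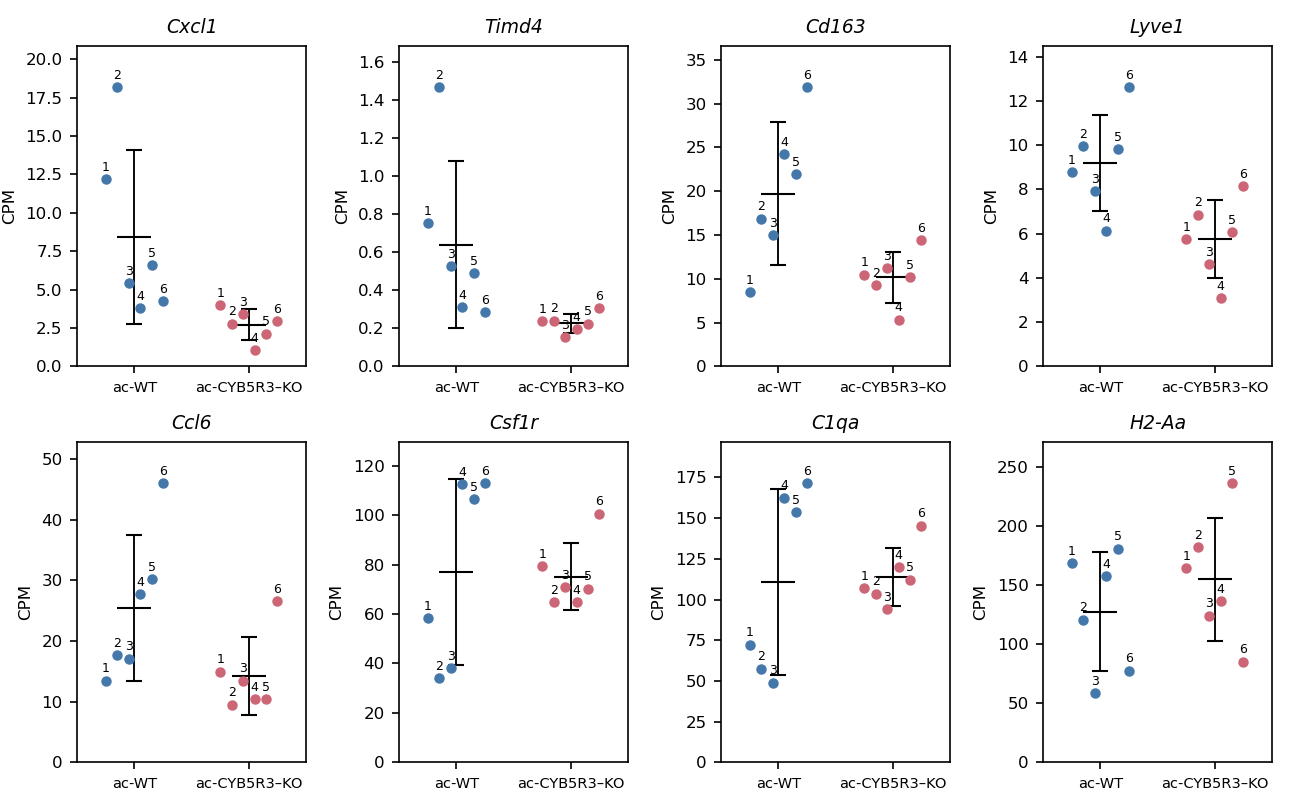
Each point is the level of a gene in 1 heart in CPM, on axes that start at 0, numbered by mouse within the ac-WT (blue) and ac-CYB5R3–KO (red) groups, with the mean and SD as bars. Cxcl1, Timd4, Cd163, Lyve1 and Ccl6 are mostly lower in ac-CYB5R3–KO hearts, while the means of Csf1r, C1qa and H2-Aa lie close together and the ac-WT hearts spread more widely for Csf1r and C1qa.

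None of the 12 genes carried by most leukocytes or macrophages passed the threshold. Csf1r, the receptor on which macrophages depend for survival, ran from 34.0 to 113 CPM in ac-WT hearts (median 82.4) and from 64.8 to 101 CPM in the ac-CYB5R3–KO hearts (median 70.6). All 6 ac-CYB5R3–KO hearts lay within the ac-WT range, and the log2 fold change was −0.04 (SE 0.29, edgeR unadjusted p = 0.901), with a sign that turned in several alternatives. Adgre1, which encodes the macrophage antigen F4/80, ran from 10.2 to 55.3 CPM in ac-WT (median 32.6) and from 21.8 to 37.7 CPM in the ac-CYB5R3–KO hearts (median 30.3). Its log2 fold change was −0.02 (SE 0.35, edgeR unadjusted p = 0.945), with a sign that also turned.

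Cd68, a lysosomal glycoprotein of macrophages, ran from 7.69 to 41.7 CPM in ac-WT (median 20.6) and from 10.9 to 27.8 CPM in the ac-CYB5R3–KO hearts (median 15.05). The groups overlapped widely and its log2 fold change was −0.37 (SE 0.41, edgeR unadjusted p = 0.378). Lyz2, lysozyme, was the most abundant of the 39 per kb of exon, at a mean of 417 CPM per kb in ac-WT and 296 CPM per kb in ac-CYB5R3–KO hearts. In CPM it ran from 189 to 916 (median 558) and from 292 to 541 (median 381), a log2 fold change of −0.49 (SE 0.38, edgeR unadjusted p = 0.215). Cd14, the co-receptor for lipopolysaccharide, ran from 14.0 to 37.5 CPM (median 25.6) and from 12.5 to 28.0 CPM (median 19.3), a log2 fold change of −0.42 (SE 0.24, edgeR unadjusted p = 0.0951). None of these 3 passed the threshold. The other 7 genes of this role, Ptprc, Laptm5, Cd52, Itgam, Itgb2, Mpeg1 and Aif1, had log2 fold changes between −0.25 and 0.11.

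The chains of C1q, which starts the classical complement pathway and is made in tissues largely by macrophages, kept nearly fixed proportions from heart to heart. C1qa ran from 49.0 to 171 CPM in ac-WT (median 113) and from 94.1 to 145 CPM in the ac-CYB5R3–KO hearts (median 110). Its log2 fold change was 0.03 (SE 0.30, edgeR unadjusted p = 0.910), with a sign that turned without ac-WT mice 2 and 3 (−0.28). Across the 12 hearts C1qa varied 3.50-fold, while the ratio of C1qb to C1qa stayed between 0.958 and 1.25 and that of C1qc to C1qa between 0.958 and 1.14. Fcer1g, the signalling chain of Fc receptors, kept a ratio to C1qa between 0.276 and 0.395. The other Fc receptor and adaptor genes, Fcgr1, Fcgr3 and Tyrobp, had log2 fold changes between −0.25 and 0.01.

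Much of the spread in these genes lay among ac-WT hearts. The 3 highest ac-WT values were those of mice 4, 5 and 6 in 26 of the 39 genes, an order found in 15.2% of all genes tested. The lowest value of all 12 hearts was that of ac-WT mouse 2 or 3 in 27 genes. In 22 of those 26 genes, every ac-CYB5R3–KO heart lay between the lowest and the highest ac-WT heart. The share over all genes tested was not taken for the counts of 27 and 22. These counts therefore cannot be read as particular to the list. The SD was larger in ac-WT than in ac-CYB5R3–KO hearts in 32 of the 39 (82.1%), and in 78.9% of all genes tested, so the share of the list was near that background. The labels name no batch for these mice. Summed levels of 6 fibroblast genes moved in the same order, at 1420 and 1458 CPM in ac-WT mice 2 and 3 against 5691 to 7033 CPM in mice 4, 5 and 6, and those of 7 cardiomyocyte genes the other way, at 43015 and 34427 CPM against 18567 to 22271 CPM. In ac-CYB5R3–KO hearts the fibroblast sum lay between 3668 and 5658 CPM and the cardiomyocyte sum between 13873 and 23406 CPM. The part of these differences in tissue makeup in the myeloid values was not tested.

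**Figure D3:**
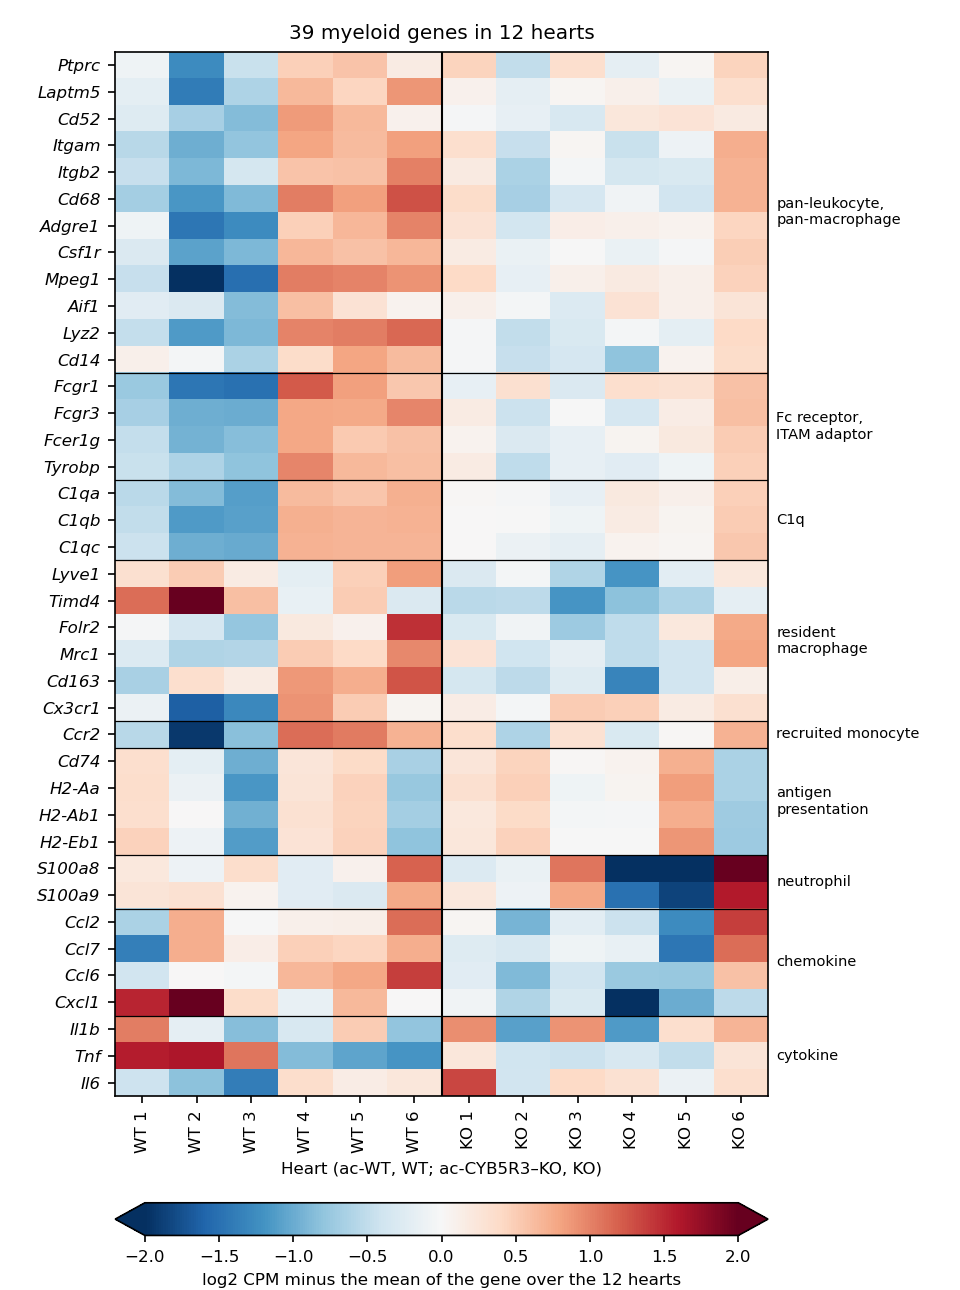
Colours give the log2 CPM of each of the 39 genes (rows, by role) in each of the 12 hearts (columns) minus the mean of that gene over the 12 hearts, and the scale ends at −2 and 2. In ac-WT hearts most rows run from blue in mice 2 and 3 to red in mice 4, 5 and 6, with ac-CYB5R3–KO hearts between, and exceptions include Timd4, Cxcl1 and Tnf, which are high in ac-WT mice 1 and 2, and the class II rows, which are low in mouse 6 of each group.

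Leaving out ac-WT mice 2 and 3 raised the count of lower genes from 5 to 12, where 4.54% of all genes tested were lower, and 0 passed the adjusted threshold, where 0.0383% of all genes did. Laptm5, Tyrobp, Lyz2, Cd68, Adgre1, Cd14 and Mpeg1 were added, and the median over the 39 became −0.39. Mouse 2 or 3 held the lowest value of all 12 hearts in 27 of the 39 genes. Leaving these mice out therefore tends to raise the ac-WT level by itself, and the count of 12 is no separate sign of a decrease. With 1 surrogate variable, 25 of the 39 were lower, where 5.19% of all genes were. With total counts 3 were lower, where 2.06% of all genes were, and with a block on the replicate number 6 were, where 8.68% of all genes were. Cxcl1, Cd163 and Timd4 were lower in each of these fits.

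Cd163 and Ccl6 were also low in ac-CYB5R3–KO hearts relative to Csf1r of the same heart. These ratios were chosen after values were seen and are given without a test. Cd163 stood at 14.6 to 49.6 CPM per 100 CPM of Csf1r in ac-WT and at 8.23 to 15.8 in ac-CYB5R3–KO hearts. The highest ac-WT ratio was that of mouse 2, and without mice 2 and 3 the ac-WT hearts ran from 14.6 to 28.2. The lowest ac-WT heart, mouse 1, had 14.577, and 3 ac-CYB5R3–KO hearts stood just under it at 14.346 to 14.565, while a further ac-CYB5R3–KO heart lay above it. Ccl6 stood at 23.1 to 52.1 in ac-WT, or 23.1 to 40.8 without mice 2 and 3, and at 14.7 to 26.4 in ac-CYB5R3–KO hearts, of which 5 of 6 lay below every ac-WT heart. The ratios of Lyve1 (5.47 to 29.3 against 4.78 to 10.6), Timd4 (0.252 to 4.32 against 0.215 to 0.371) and Cxcl1 (3.38 to 53.4 against 1.63 to 5.04) overlapped more. Without ac-WT mice 2 and 3 the ac-WT ratios of these 3 ended at 15.03, 1.29 and 20.9. All 5 ratios were highest in ac-WT mouse 2, whose Csf1r was the lowest of all hearts.

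**Figure D4:**
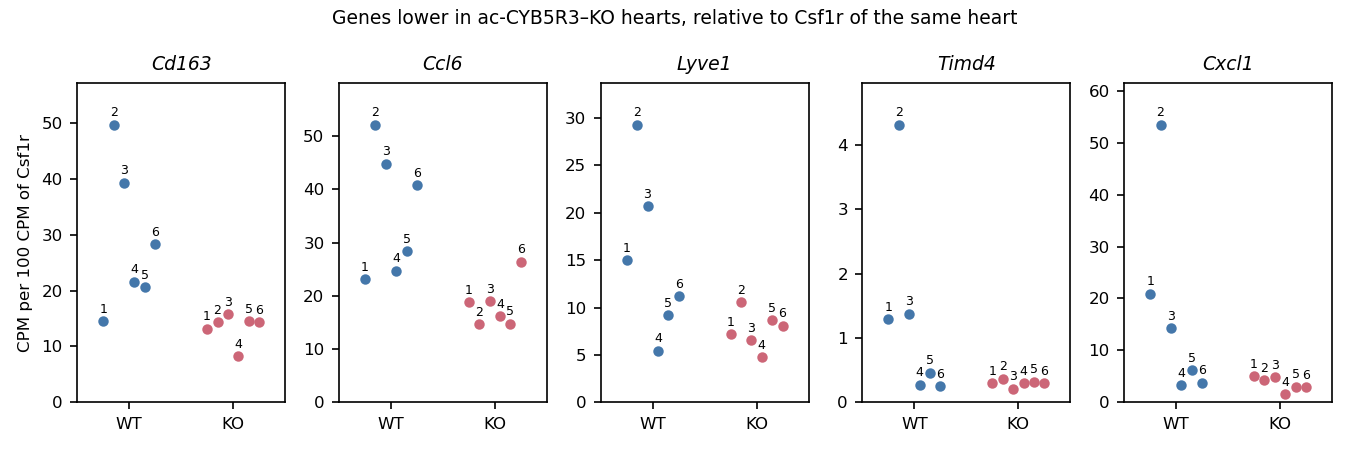
Each point is the CPM of a gene per 100 CPM of Csf1r in the same heart, numbered by mouse, for ac-WT (WT, blue) and ac-CYB5R3–KO (KO, red), on axes that start at 0. Mouse 2 is the highest ac-WT point in all 5 panels, and the lowest ac-WT point for Cd163, mouse 1, lies level with several ac-CYB5R3–KO points.

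Class II genes varied together, and H2-Aa varied apart from C1qa. H2-Aa encodes the alpha chain of I-A, which presents peptides to CD4+ T cells. It ran from 58.7 to 181 CPM in ac-WT (median 139) and from 85.4 to 236 CPM in the ac-CYB5R3–KO hearts (median 150), a log2 fold change of 0.28 (SE 0.29, edgeR unadjusted p = 0.348). Cd74, the invariant chain that guides class II molecules to endosomes, ran from 103 to 262 CPM (median 208) and from 131 to 332 CPM (median 227), a log2 fold change of 0.26 (SE 0.26, edgeR unadjusted p = 0.321). H2-Ab1 and H2-Eb1, the beta chains of I-A and I-E, had log2 fold changes of 0.15 and 0.24. None of the 4 passed the threshold. The lowest values of all 4 were those of ac-WT mice 3 and 6 and ac-CYB5R3–KO mouse 6. Over the 12 hearts H2-Aa varied 4.02-fold, while H2-Eb1 stayed between 0.696 and 0.795 of H2-Aa and Cd74 between 1.40 and 1.75 times H2-Aa. The ratio of H2-Aa to C1qa varied 5.16-fold, from 0.453 in ac-WT mouse 6 to 2.34 in ac-WT mouse 1.

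The promoters of H2-Aa and H2-Eb1 are shown because these genes moved together over the hearts and share the paired boxes known from class II promoters. Capitals mark TNGCAACT, letters of the X box, bound by the RFX complex, and CTGATTGG, letters of the Y box, bound by NF-Y. The H2-Aa stretch is chr17:34287847-34287926, minus strand, and the H2-Eb1 stretch chr17:34305754-34305832, plus strand (RefSeq, GRCm38.p6).
H2-Aa: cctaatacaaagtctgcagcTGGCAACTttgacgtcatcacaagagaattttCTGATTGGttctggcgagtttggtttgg
H2-Eb1: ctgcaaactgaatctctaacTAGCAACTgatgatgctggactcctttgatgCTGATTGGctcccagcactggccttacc
The boxes start 83 and 51 bases before the start of H2-Aa and 93 and 62 bases before that of H2-Eb1, with 24 and 23 bases between them. On either strand, TNGCAACT occurs in 2.99% of 32851 promoters, CTGATTGG in 4.10% and both in 42 promoters (0.128%), and among the 27 matched genes both occur in these 2 alone. No promoter was matched for Cd74 or H2-Ab1. Ciita, the co-activator that class II promoters need, averaged 3.56 ± 1.07 CPM in ac-WT and 3.24 ± 0.883 CPM in ac-CYB5R3–KO hearts, and mouse 6 was the lowest of each group. Here too a match of letters is no measure of binding, and the part of Ciita or of cell makeup in the class II levels was not tested.

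**Figure D5:**
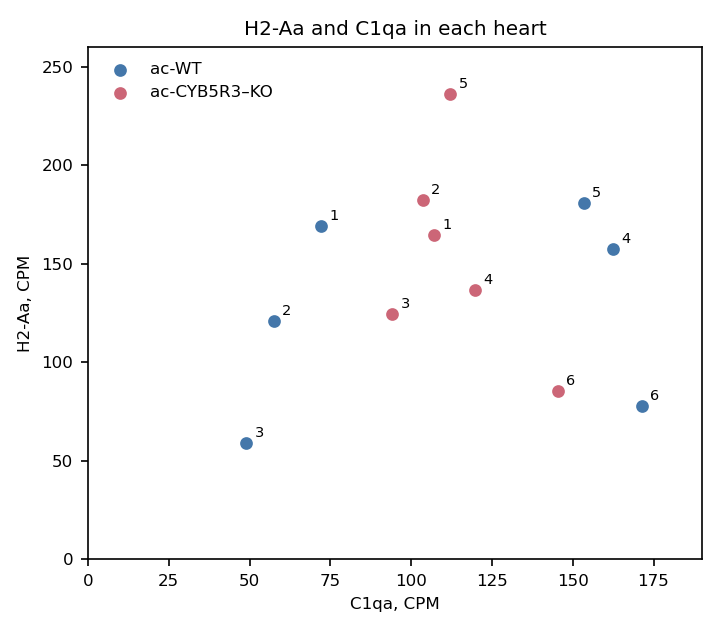
The level of H2-Aa (vertical axis, CPM) is plotted against that of C1qa (horizontal axis, CPM) in each heart, numbered by mouse, for ac-WT (blue) and ac-CYB5R3–KO (red). Mouse 6 of each group combines a high C1qa level with a low H2-Aa level, and ac-WT mouse 3 is the lowest in both.

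S100a8 and S100a9 form calprotectin, abundant in neutrophils and monocytes. S100a8 ran from 1.35 to 3.57 CPM in ac-WT (median 1.73) and from 0.357 to 6.25 CPM in the ac-CYB5R3–KO hearts (median 1.36), a spread of 17.5-fold within the latter group. Mice 3 and 6 were high and mice 4 and 5 low among ac-CYB5R3–KO hearts, and the same held for S100a9. The log2 fold change of S100a8 was 0.13 (SE 0.58, edgeR unadjusted p = 0.828), with a sign that turned without ac-CYB5R3–KO mouse 6 (−0.55). Of 10 other neutrophil genes 2 passed the filter on low counts, none of these 2 passed the threshold, Elane was at 0 in every heart, and the neutrophil marker Ly6g reached at most 0.0833 CPM. Summed levels of 5 red blood cell genes, which blood left in the tissue also carries, ran from 222 to 4487 CPM in ac-WT and from 1323 to 12228 CPM in the ac-CYB5R3–KO hearts. The 2 highest of all were those of ac-CYB5R3–KO mice 3 and 6, which were also highest in S100a8 in that group, and the part of blood in S100a8 was not tested.

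The 3 cytokines averaged 0.335 (Tnf), 0.826 (Il1b) and 1.05 (Il6) CPM per kb of exon in ac-WT hearts. Tnf ran from 0.152 to 1.05 CPM in ac-WT hearts (median 0.454), with mice 1, 2 and 3 at 0.722 CPM or more and mice 4, 5 and 6 at 0.187 CPM or less. In ac-CYB5R3–KO hearts it ran from 0.244 to 0.407 CPM (median 0.266), and the log2 fold change was −0.81 (SE 0.49, edgeR unadjusted p = 0.125). Without ac-WT mouse 6 it was −1.01 and passed (edgeR unadjusted p = 0.0464). Tnf was counted in 8 to 54 reads per heart. Il6 ran from 0.500 to 1.66 CPM (median 1.21) and from 0.997 to 3.29 CPM (median 1.63), a log2 fold change of 0.60 (SE 0.33, edgeR unadjusted p = 0.0903), with ac-CYB5R3–KO mouse 1 the highest. It was 0.32 without that mouse (edgeR unadjusted p = 0.298) and 0.18 with 1 surrogate variable. Without ac-CYB5R3–KO mouse 2 it was 0.72 and passed (edgeR unadjusted p = 0.0471). Il1b ran from 0.833 to 3.07 CPM (median 1.27) and from 0.686 to 2.85 CPM (median 2.15), a log2 fold change of 0.25 (SE 0.42, edgeR unadjusted p = 0.558). None of the 3 passed the threshold.

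Few related genes of the same pathways, taken from further lists, passed the threshold over all 12 hearts in edgeR without a covariate. In edgeR 0 of 12 myeloid transcription and growth factors passed the unadjusted threshold, Spi1 and Csf1 among them, as did 0 of 18 macrophage receptor and lysosomal genes tested, 0 of 18 signalling genes, 0 of 12 class II regulators and 0 of 8 dendritic cell genes. Over all genes tested 9.73% were lower and 4.91% higher in that fit. Without ac-WT mice 2 and 3, the lower genes in these lists were 1, 1, 6, 1 and 1, where 4.54% of all genes were lower. With 1 surrogate variable the lower genes were 5, 10, 14, 2 and 3, where 5.19% of all genes were lower. In both of these fits 0 genes of these lists were higher. Csf1, the ligand of Csf1r, averaged 31.6 ± 2.58 CPM in ac-WT and 32.7 ± 2.47 CPM in ac-CYB5R3–KO hearts. Of 17 other chemokines and receptors tested, Cx3cl1 was higher and Ccl24, an eotaxin, lower (log2 fold change −1.30, SE 0.48, edgeR unadjusted p = 0.0176). Without ac-WT mice 2 and 3 the difference was 0.46 for Cx3cl1 and −0.74 for Ccl24, which no longer passed (unadjusted p = 0.134). With 1 surrogate variable 3 of the 17 were lower and 1 was higher. Among cytokine receptors and innate sensors, 4 of 20 were lower without ac-WT mice 2 and 3, and 6 of 19 with 1 surrogate variable. Over all hearts without a covariate, of the 19 tested, Pycard, the inflammasome adaptor ASC, was lower. It averaged 8.10 ± 2.32 CPM in ac-WT and 5.39 ± 0.628 CPM in ac-CYB5R3–KO hearts, with no overlap (log2 fold change −0.58, SE 0.16, edgeR unadjusted p = 0.0031, adjusted p = 0.184).

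Of 9 monocyte genes tested, Nr4a1 and Ear2 were lower over all hearts. Without ac-WT mice 2 and 3, 3 of 10 were lower, and with 1 surrogate variable 3 of 9 were. Nr4a1, a nuclear receptor needed by patrolling monocytes and also an immediate early gene of many cells, ran from 30.5 to 182 CPM in ac-WT and from 15.7 to 39.6 CPM in the ac-CYB5R3–KO hearts (log2 fold change −1.79, SE 0.43, edgeR unadjusted p = 0.0011), and −1.20 without ac-WT mice 2 and 3. Like Tnf, it was highest in ac-WT mice 1, 2 and 3, at 106 CPM or more.

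Markers of other cells moved beside the myeloid genes. Over all genes tested 9.73% were lower and 4.91% higher. Of 8 T cell genes 3 were higher. Levels were low, and the 8 summed to 2.47 to 5.89 CPM in ac-WT and 5.35 to 8.27 CPM in ac-CYB5R3–KO hearts. Cd8a averaged 0.279 ± 0.146 CPM in ac-WT and 0.768 ± 0.118 CPM in ac-CYB5R3–KO hearts without overlap (log2 fold change 1.42, SE 0.29, edgeR unadjusted p = 0.00027, adjusted p = 0.105). Of 5 mast cell genes tested 2 were lower, Mcpt4 (−1.91) and Cpa3 (−1.69), and 3 of 5 red blood cell genes were higher, among them Alas2 (1.62). Of 7 cardiomyocyte genes 3 were lower, Tnni3 (−1.01), Myl2 (−1.22) and Myh6 (−0.75), and the summed level of the list stood above the ac-CYB5R3–KO range in ac-WT mice 2 and 3 alone. Without those mice the values were −0.46, −0.50 and −0.22, and Myh6 no longer passed (unadjusted p = 0.302). Cpa3 did not pass without them either (−1.04, unadjusted p = 0.0519), Mcpt4 was at −1.32, all 5 red blood cell genes were higher, with Alas2 at 2.36, and Cd8a was at 1.20. With 1 surrogate variable Tnni3, Myl2 and Myh6 were at −0.40, −0.35 and −0.13, and 0 of the 7 cardiomyocyte genes passed. In that fit 1 mast cell gene was lower, and 3 T cell and 5 red blood cell genes were higher. In B cell (5 tested), platelet (4), endothelial (7) and fibroblast (6) genes, 0 passed the unadjusted threshold in edgeR over all hearts without a covariate. Without ac-WT mice 2 and 3 the count was 0 apart from 2 fibroblast genes that were lower. With 1 surrogate variable 1 B cell gene and 2 fibroblast genes were lower. The part of these cells in the myeloid values was not tested.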

How the data were processed

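RNA-seq of 12 mouse hearts was analysed, 6 ac-WT and 6 ac-CYB5R3–KO, grouped by the sample labels. A stranded kit for total RNA was used. The submitters' processing notes name STAR, featureCounts and the build GRCm39, while the study's methods name mm9. The strand setting and annotation of the counts are not given in the sources used here, so reads of overlapping or antisense genes could be shared. The authors deposited raw counts per Ensembl gene for each heart, without normalization or filter. Symbols were found for 31027 of 53700 identifiers (57.8%), and gene coordinates came from GENCODE on NCBIM37.

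Counts were filtered (filterByExpr, minimum count 10), scaled by TMM and tested with edgeR's quasi-likelihood test, two-sided (version 4.0.16, R 4.3.3), with Benjamini-Hochberg adjustment over 17847 genes. The study tested FPKM values with Cuffdiff, and a count test was used here because the table holds counts. The exact permutation test on CPM was two-sided over 924 splits of the hearts, and 0.00216 is the smallest p it can give. SDs were compared on log2(CPM + 1), with a pseudocount of 1. Alternatives were DESeq2 (1.42.0), limma-voom (limma 3.58.1), total counts, DESeq2 size factors in edgeR, no filter, at least 10 counts in each of the 12 libraries, a block on the replicate number, 1 surrogate variable (svaseq of sva 3.50.0), ac-WT mice 2 and 3 left out, and each mouse left out in turn. Calls by role, calls in other lists and the named genes of those lists were refitted after the data were seen. These refits were made without ac-WT mice 2 and 3 and with the surrogate variable. Scripts were tested on simulated data. The biological coefficient of variation, the spread between mice, was 26.5%.

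The members and lists were chosen with earlier results of these data known, and the lymphatic list and the ratios after values were seen. Described in full were members with an unadjusted p under 0.05, those with the next lowest p up to 12 members, and 10 genes standing for the roles. From each other list up to 3 genes with the lowest p under 0.05 were named, with defining markers.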

Additional observations from a re-analysis of the deposited data

Results flagged for a closer look

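In 7 of 78 pairs of a gene and a group, the highest heart stood apart from the other 5 by Dixon's test at the 95% level, where chance gives about 5% of pairs. In ac-CYB5R3–KO hearts, mouse 6 stood apart in 4 genes. It had 158.6 CPM of C1qc (next highest 114.8), 9.02 CPM of Ccl2 (next 3.57), 6.29 CPM of Ccl7 (next 2.74) and 26.5 CPM of Ccl6 (next 14.97). In the same group, mouse 1 stood apart in Il6, at 3.29 CPM (next 1.71). Among ac-WT hearts, mouse 6 stood apart in Folr2, at 1.69 CPM (next 0.705), and in S100a8, at 3.57 CPM (next 2.00).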

How the results depend on the processing

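Cxcl1, Cd163 and Timd4 were lower at an unadjusted p under 0.05 in every alternative that tested them (Timd4 and Tnf were not tested with at least 10 counts in every library). Of the 39 genes, 3 were lower with total counts, 12 without ac-WT mice 2 and 3, 25 with 1 surrogate variable and 5 to 7 when 1 mouse was left out, and 0 to 1 was higher when 1 mouse was left out. By DESeq2, 3 passed the adjusted threshold, and 0 in every other alternative. Total counts moved the median of all genes to 0.26, with that of the 39 at 0.03. The median over the 39 ran from −0.28 to 0.08 when 1 mouse was left out and was 0.056 with limma-voom. Cyb5r3 missed the adjusted threshold with limma-voom (−1.17), total counts (−1.03), the replicate block (−1.18) and some mice left out (−1.31 to −1.08 over all).

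The sign turned for Adgre1 with limma-voom (0.22), total counts (0.089), the block (0.21) and single mice left out (−0.19 to 0.22). It turned for Csf1r with limma-voom (0.14), total counts (0.10), the block (0.12) and single mice left out (−0.18 to 0.10), and for Ccr2 with limma-voom (0.13), the block (0.15) and single mice left out (−0.35 to 0.087). C1qa turned with 1 surrogate variable (−0.43), without ac-WT mice 2 and 3 (−0.28) and with single mice left out (−0.11 to 0.20). S100a8 turned with limma-voom (−0.51), the block (−0.39), 1 surrogate variable (−0.028) and single mice left out (−0.55 to 0.39), and Tnf with 1 surrogate variable (0.24). The cause was not tested.

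Mice that share a replicate number are different animals. Deviations of same-numbered mice correlated between −0.160 and 0.360, with a mean of 0.133 against −0.0255 for other numbers, and 6 of 12 hearts correlated best with their own number, a hint from the data and not the design. The correlation was over 0.1 in 4 of 6 pairs and not in all, and the labels give no shared litter or day, so the block was kept as an alternative. With the replicate block 6 of the 39 genes were lower, with Cd14 added, 0 were higher, 0 passed the adjusted threshold, and the median was 0.058.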
